A study of Mus musculus with 20 samples.

Results

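Described here are 30 genes of the tricarboxylic acid (TCA) cycle and of the routes by which pyruvate and glutamine carbon enter it. They were chosen by function and by gene symbol, not by their values. They are the cycle enzymes without succinate dehydrogenase, the pyruvate dehydrogenase complex with its kinases and a phosphatase, and the mitochondrial pyruvate carrier. The rest are enzymes that exchange carbon or amino groups with the cycle. All 30 were among the 16363 genes tested in an acute arm and among the 16136 genes tested in a survival arm. The source was leukemic spleen of sub-lethally irradiated mice that had received T-ALL cells intravenously. T-ALL is T-cell acute lymphoblastic leukemia, and in all groups the leukemia carried a conditional Acly allele. Acly encodes ATP-citrate lyase, which makes cytosolic acetyl-CoA from citrate exported by mitochondria.

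In the acute arm, overtly leukemic mice received tamoxifen (3 mg per mouse in corn oil, intraperitoneally; the KO group, 4 libraries) or corn oil alone (the WT group, 6 libraries). Their spleens were collected after 72 h. In the survival arm the same treatments were given 48 h after transplantation (KO, 5 libraries; WT, 5 libraries), and spleens were collected at the humane endpoint. WT thus means vehicle-treated leukemia of the same kind, and effects of tamoxifen and of the deletion cannot be told apart. The labels name the deleted genotype, but not the Cre driver, the number of independent leukemias, or the age of the mice. Spleen suspensions had their red cells lysed, and no sort is named, so each library holds leukemic and host cells together. Nothing states that libraries came from separate mice, so p-values measure the spread between libraries, which may be technical. Below, KO and WT spleens name the source of a group's libraries, and n counts libraries, not mice.

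The TCA cycle oxidises acetyl-CoA in the mitochondrial matrix and supplies citrate, oxoglutarate and oxaloacetate for biosynthesis. Pyruvate reaches the matrix through a carrier made of MPC1 and MPC2, and the pyruvate dehydrogenase complex turns it into acetyl-CoA. Pyruvate dehydrogenase kinases switch that complex off by phosphorylation and phosphatases switch it on again. Glutamine carbon enters the cycle as oxoglutarate, made from glutamate by glutamate dehydrogenase or by transaminases.

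The promoters of 3 genes are shown because their genes stand for the different outcomes below. Pdha1 had the lowest adjusted p of the genes that were lower in acute KO spleens, Sucla2 was a smaller change that rested on single libraries, and Pck2 had the largest fold change. The sequences are RefSeq promoters of build GRCm38.p6, from 250 bases before to 50 bases after the annotated start, 5′ to 3′ on the gene's strand. Pdha1 lies at chrX:160138381-160138680 on the minus strand, Sucla2 at chr14:73552536-73552835 on the plus strand and Pck2 at chr14:55540016-55540315 on the plus strand. Capitals mark a match to the NRF1 motif, a GC-rich stretch in which one base is left free.
Pdha1: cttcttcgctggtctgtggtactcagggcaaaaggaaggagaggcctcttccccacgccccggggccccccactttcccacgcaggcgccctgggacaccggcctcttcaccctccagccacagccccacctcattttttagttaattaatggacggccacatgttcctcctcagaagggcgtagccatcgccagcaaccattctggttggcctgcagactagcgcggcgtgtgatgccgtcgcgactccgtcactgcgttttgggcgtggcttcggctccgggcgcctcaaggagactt
Sucla2: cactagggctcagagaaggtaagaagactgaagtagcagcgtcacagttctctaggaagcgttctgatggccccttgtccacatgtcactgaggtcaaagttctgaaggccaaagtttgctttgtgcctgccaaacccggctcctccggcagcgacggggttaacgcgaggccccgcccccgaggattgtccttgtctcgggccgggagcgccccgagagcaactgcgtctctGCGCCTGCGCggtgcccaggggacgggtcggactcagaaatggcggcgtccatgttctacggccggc
Pck2: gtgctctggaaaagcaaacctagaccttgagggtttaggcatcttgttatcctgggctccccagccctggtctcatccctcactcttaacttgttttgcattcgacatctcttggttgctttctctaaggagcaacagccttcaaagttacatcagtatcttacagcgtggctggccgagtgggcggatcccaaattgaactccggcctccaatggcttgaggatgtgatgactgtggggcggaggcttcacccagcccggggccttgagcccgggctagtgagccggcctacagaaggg
Promoters were found for 27 of the 30 genes, with 36 promoters in all; Idh3a, Pdp1 and Me2 had no entry. The NRF1 motif, searched on both strands, was in 2 of these 36 promoters, those of Sucla2 (17 bases before the start) and Dld, and in 4.6% of all 32851 promoters of that length. NRF1 is a transcription factor known for nuclear genes of mitochondrial proteins. The E-box CACGTG, the motif bound by MYC with MAX, was in 4 of the 36 promoters, which belong to Ogdh and Pdk2, and in 7.15% of all promoters. These matches describe letters in the window and were not tested as binding sites.

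The values are normalized counts in which each arm was scaled in its own table. Acute libraries totalled 19432235 to 20731983 and survival libraries 19998354 to 21623571. Acly was lower in both KO groups as deposited without being lost. It averaged 5670 ± 766 in acute KO spleens (SD, n = 4) and 7735 ± 298 in acute WT spleens (n = 6), a log2 fold change of -0.46, SE 0.0747, adjusted p = 0.000866 (limma, Benjamini-Hochberg; exact two-sided permutation p = 0.00952, the least this test can give with these groups). That acute value was -0.08 (adjusted p = 0.654) when libraries were scaled to Trbc1 and Trbc2, which encode the constant part of the T-cell receptor beta chain. Among survival spleens it averaged 3091 ± 712 in KO and 7889 ± 561 in WT spleens (SD, n = 5 each; log2 fold change -1.38, SE 0.131, adjusted p = 0.0016; exact permutation p = 0.00794, also the smallest possible). Over all genes, limma called 5140 in the acute arm, 2731 higher and 2409 lower in KO, and 2 in the survival arm, where 1411 had an unadjusted p under 0.05.

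Markers of other cells moved with the acute comparison. Of 81 tested markers of 9 other cell classes, 55 were higher in acute KO spleens and 0 lower, among them 14 of 14 neutrophil and 13 of 13 monocyte and macrophage markers. Over the 85 markers in the tables the summed level per library ranged from 233267 to 739885 in acute KO and from 42829 to 87864 in acute WT spleens. None of these markers, and none of 16 T-lineage markers, was at 0 in all libraries of a group. Of the T-lineage markers 15 were lower, with summed levels of 146910 to 199352 in acute KO and 222826 to 232023 in acute WT spleens. Acute KO libraries 2 and 3 stood furthest apart on a score of the other-cell lists (mean log2 level centred over libraries), with 1.42 and 1.21, while KO libraries 1 and 4 had 0.32 and 0.65. The acute WT libraries ranged from -0.93 to -0.17. For survival spleens none of the markers was called, and the score ranged from -0.25 to 0.43 in KO and from -0.29 to 0.24 in WT spleens. With this score as a covariate the acute log2 fold change of Acly was -0.76 (adjusted p = 0.288), and without KO libraries 2 and 3 it was -0.62 (adjusted p = 0.000141). In such bulk samples, fewer cells of a type and less RNA per cell cannot be told apart.

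In the acute arm, most changed genes of the pathway were modestly lower in KO spleens as deposited, and a smaller group was higher. limma called 19 of the 30 genes, beside 31.4% of all tested genes. Of the 30, 15 were lower and 4 higher, where 14.7% and 16.7% of all tested genes were called lower and higher; after scaling to Trbc1 and Trbc2 none of the 15 was called lower, and with the other-cell score as a covariate none of the 19 was called. The summed level of Trbc1 and Trbc2 averaged -0.38 log2 units in acute KO libraries relative to the acute WT mean. Scaling to it moves all acute fold changes up by nearly that amount, so a rise could not be lost under it. A fall of less than that had to turn positive whatever the gene, so the lost calls are no test of single genes. The log2 fold changes of the 15 ran from -0.44 to -0.16, so the lowest KO level was 73.6% of WT. The median over the 30 genes was -0.15, beside -0.02 over all tested genes, and 21 of the 30 values were negative beside 53.0% of all genes. For 17 of the 30, KO and WT libraries did not overlap, 14 of them lower and 3 higher, where 22.7% of all tested genes did not overlap (9.94% with KO below and 12.7% with KO above WT).

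**Figure D1:**
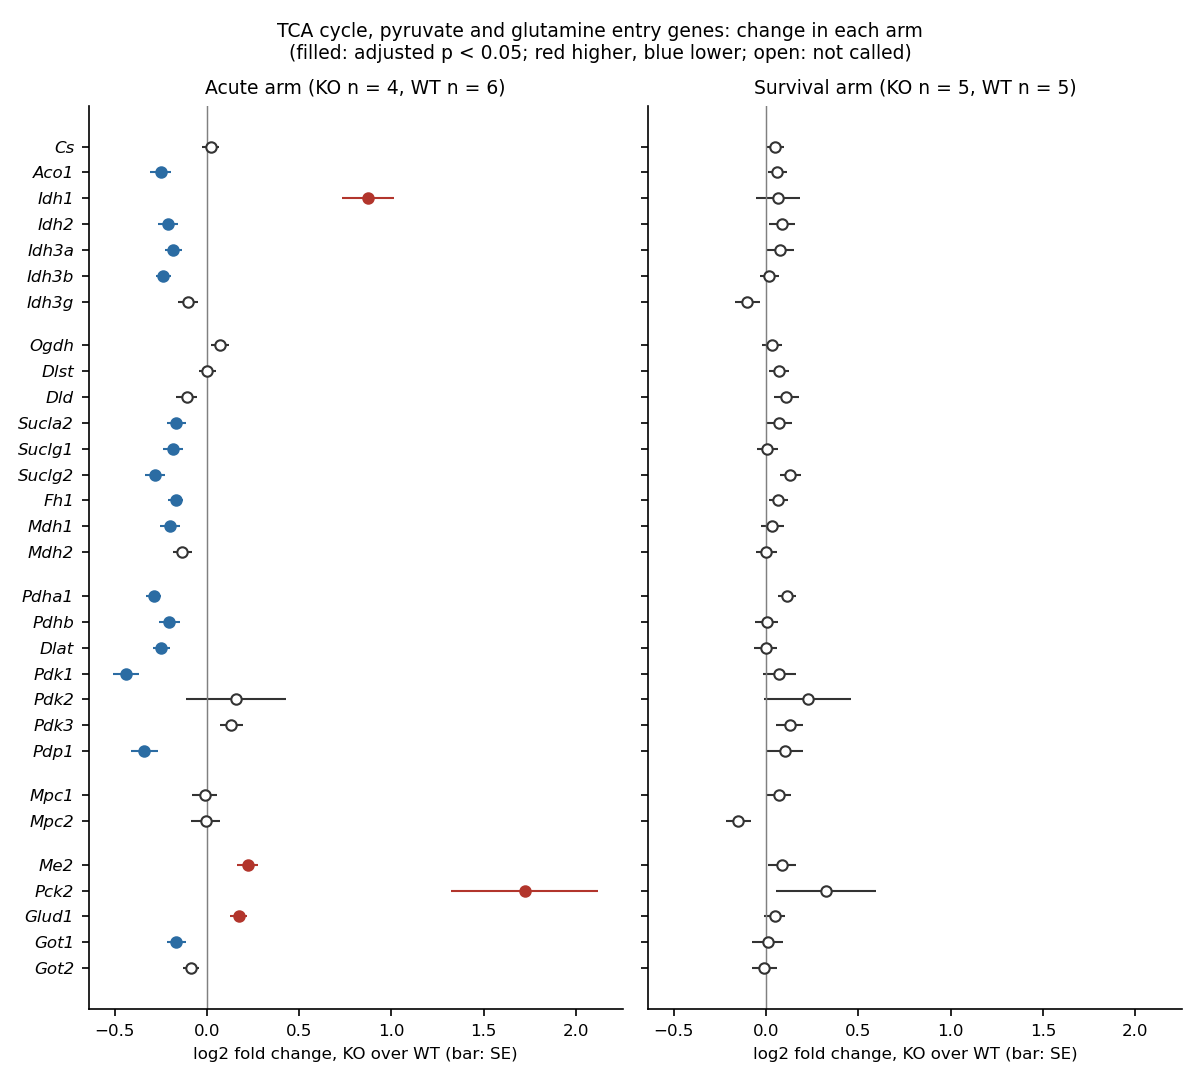
Log2 fold change of KO over WT (x axis, with SE) for each of the 30 genes, in role order down the page, in the acute arm (left) and the survival arm (right). Filled points passed an adjusted p under 0.05. In the acute arm 15 genes were lower and 4 higher as deposited, and none of the 15 was lower when scaled to Trbc1 and Trbc2. In the survival arm no point is filled.

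The pyruvate dehydrogenase complex and its regulators held the largest falls, as deposited. Of 7 genes here 5 were lower, 0 higher, and Pdk2 and Pdk3 did not pass (median -0.25); scaled to Trbc1 and Trbc2, none of the 5 was called and Pdk1 alone kept a negative value. Pdha1, the catalytic E1 alpha subunit, had 4553, 4289.8, 4255 and 4404 normalized counts in acute KO libraries 1 to 4. The 6 acute WT libraries had 5199.9 at the lowest, 5308 at the median and 5642 at the highest. All KO libraries lay below all WT libraries, with a log2 fold change of -0.29, SE 0.0398, adjusted p = 0.000291, the lowest adjusted p of the 30 genes. Pdhb, the E1 beta subunit, had 3273, 3079, 2988 and 3458 in acute KO spleens and 3298 at the lowest, 3748 at the median and 3836 at the highest in acute WT spleens. Here the groups overlapped, because WT library 1 held the lowest WT value and KO library 4 lay above it (log2 fold change -0.20, SE 0.0561, adjusted p = 0.0164). Without KO library 3 the adjusted p of Pdhb was 0.0609. Dlat, the E2 acetyltransferase that hands acetyl groups to coenzyme A, had 1718, 1622, 1717 and 1559.6 in acute KO spleens and 1901 at the lowest, 1948 at the median and 2053 at the highest in acute WT spleens. Its KO libraries all lay below WT (log2 fold change -0.25, SE 0.0453, adjusted p = 0.00175).

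Among the enzymes that switch the complex off and on, the kinase Pdk1 and the phosphatase Pdp1 were lower in acute KO spleens as deposited. Pdk1, a kinase that inactivates the complex and a known HIF1 target, had 749, 818, 824 and 826 normalized counts in acute KO spleens and 962 at the lowest, 1079 at the median and 1267 at the highest in acute WT spleens. The groups did not overlap, KO library 1 was the lowest, and the log2 fold change of -0.44, SE 0.0714, adjusted p = 0.000865 was the largest fall of the 30 genes. Pdp1, a phosphatase that reactivates the complex, had 314, 287, 275 and 271 in acute KO spleens and 344 at the lowest, 359 at the median and 390.3 at the highest in acute WT spleens. Its groups did not overlap (log2 fold change -0.34, SE 0.0736, adjusted p = 0.00475). Another phosphatase, Pdp2, which is not among the 30 genes, did not pass (log2 fold change -0.10, SE 0.0542, adjusted p = 0.194). The kinase Pdk3 had a log2 fold change of 0.13, SE 0.0618, adjusted p = 0.127, and the low-count kinase Pdk2 of 0.16, SE 0.272, adjusted p = 0.711. Pdk3 would pass without KO library 4 (adjusted p = 0.0455).

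A ratio of a pair of genes within a library does not depend on how that library was scaled. The mix of cells can still change such a ratio, and other-cell markers were higher in acute KO spleens. Whether the mix did so here was not tested. Of 8 pairs compared in both arms, 16 tests in all, 0 had an adjusted p under 0.05. The exact permutation p could not fall under 0.00952 in the acute or 0.00794 in the survival arm. A single pair with fully separated groups thus could not pass after adjustment, so this count does not show that the ratios were alike. The log2 ratio of Pdk1 to Pdk3 averaged -0.19 ± 0.121 in acute KO (SD, n = 4) and 0.38 ± 0.0875 in acute WT spleens (n = 6), and the groups did not overlap. The difference was -0.57 (SE 0.0702, exact two-sided permutation p = 0.00952, the smallest possible, adjusted p = 0.0762), so Pdk1 was lower relative to Pdk3 in each KO library than in any WT library. The ratio of Pdk1 to Pdp1 differed by -0.10 (SE 0.0933, exact permutation p = 0.305, adjusted p = 0.697).

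**Figure D2:**
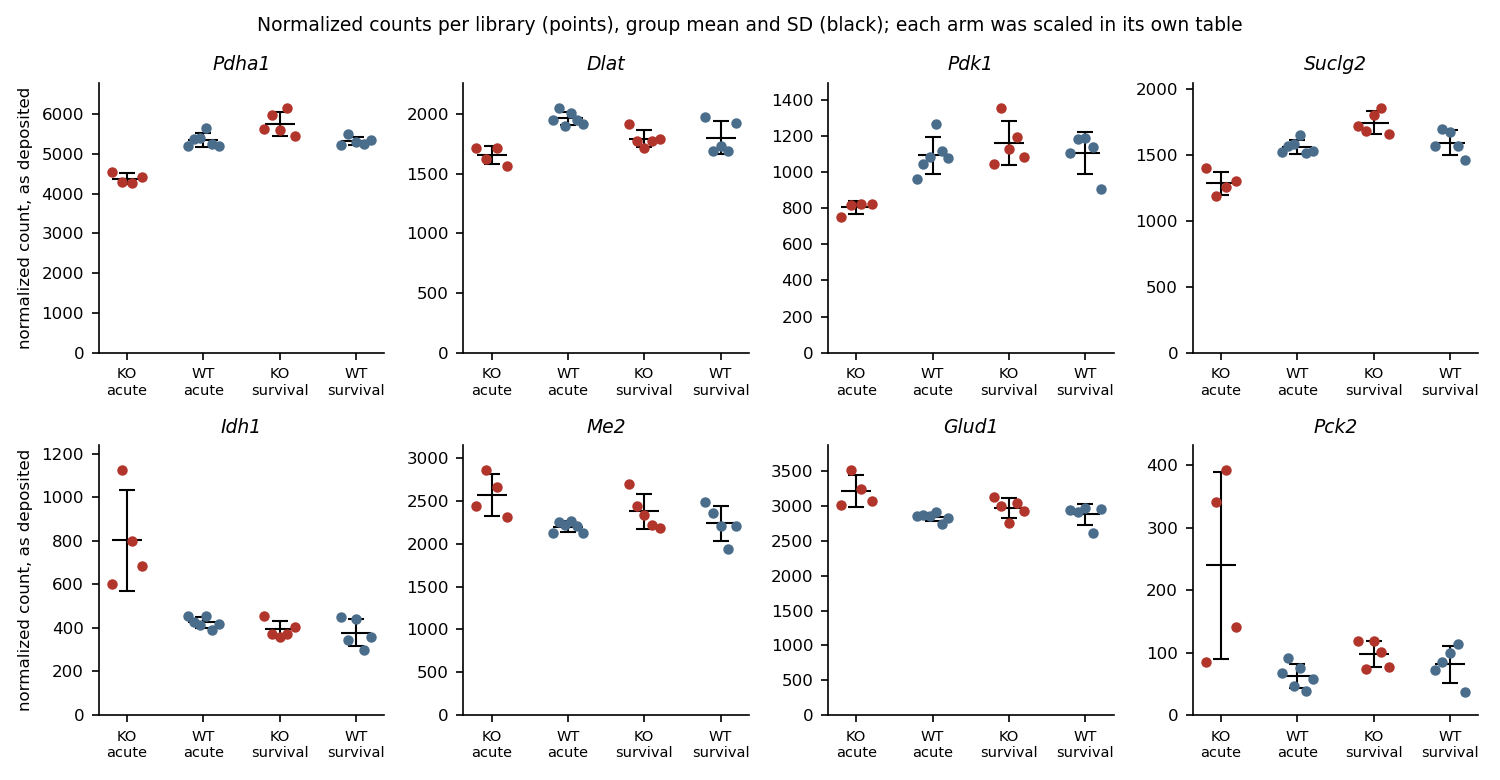
Normalized counts (y axis, from 0) of 8 genes in each library (points), by group on the x axis, with the group mean and SD in black; KO is red and WT blue. As deposited, acute KO points of Pdha1, Dlat, Pdk1 and Suclg2 lie below acute WT and those of Idh1, Me2 and Glud1 above, while Pck2 overlaps; scaled to Trbc1 and Trbc2 the first 4 genes were not called.

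For the first steps of the cycle, citrate synthase did not pass the test while most isocitrate-handling genes were lower in acute KO spleens as deposited. Of 7 genes 4 were lower and 1, Idh1, higher (median -0.18); scaled to Trbc1 and Trbc2 none of the 4 was called and all had positive values. Cs, which joins acetyl-CoA to oxaloacetate, had 5806, 6046, 6246 and 5368 normalized counts in acute KO spleens and 5664 at the lowest, 5764 at the median and 5897 at the highest in acute WT spleens. The WT values lay inside the KO range (log2 fold change 0.02, SE 0.0454, adjusted p = 0.777). Aco1, the cytosolic aconitase that doubles as an iron-regulated RNA-binding protein, had 1281, 1127, 1242 and 1157 in acute KO spleens and 1324 at the lowest, 1437 at the median and 1505 at the highest in acute WT spleens. KO and WT did not overlap (log2 fold change -0.25, SE 0.0552, adjusted p = 0.00514).

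The NADP-linked isocitrate dehydrogenases differed in direction as deposited, with Idh1 of the cytosol higher and Idh2 of the mitochondrion lower. Idh1 had 600.4, 1126, 797 and 684 normalized counts in acute KO spleens and 389.6 at the lowest, 422 at the median and 453 at the highest in acute WT spleens. All KO libraries lay above WT and KO library 2 was the highest (log2 fold change 0.87, SE 0.14, adjusted p = 0.000758). Idh1 was 0.59 (adjusted p = 0.00149) without KO libraries 2 and 3, and 0.14 (adjusted p = 0.944) with the other-cell score as a covariate. Idh2 had 1415, 1396, 1421 and 1389.8 in acute KO spleens and 1543 at the lowest, 1604 at the median and 1819.9 at the highest in acute WT spleens. The groups did not overlap (log2 fold change -0.21, SE 0.0521, adjusted p = 0.00969), but Idh2 was 0.17 (adjusted p = 0.175) scaled to Trbc1 and Trbc2. The log2 ratio of Idh1 to Idh2 averaged -0.85 ± 0.396 in acute KO (SD, n = 4) and -1.93 ± 0.133 in acute WT spleens (n = 6). It differed by 1.08 (SE 0.205) with no overlap of the groups (exact permutation p = 0.00952, the smallest possible, adjusted p = 0.0762).

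The NAD-linked isocitrate dehydrogenase, a matrix enzyme built of alpha, beta and gamma subunits, was lower in its alpha and beta genes as deposited. Idh3b had 3084, 2797, 2809 and 2809.5 normalized counts in acute KO spleens and 3258 at the lowest, 3413 at the median and 3445 at the highest in acute WT spleens. KO library 1 was well above the other KO libraries but still below WT (log2 fold change -0.23, SE 0.0421, adjusted p = 0.00151). Idh3a, the catalytic alpha subunit, had 2414, 2312, 2536 and 2558 in acute KO spleens and 2649 at the lowest, 2774 at the median and 2934 at the highest in acute WT spleens. Its groups did not overlap (log2 fold change -0.18, SE 0.0447, adjusted p = 0.00947). Idh3g, the gamma subunit, overlapped between KO and WT (log2 fold change -0.10, SE 0.0536, adjusted p = 0.176).

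From oxoglutarate to oxaloacetate, the succinate-CoA ligase genes, Fh1 and Mdh1 were lower in acute KO spleens as deposited. Of 9 genes 5 were lower and 0 higher (median -0.16), and the oxoglutarate dehydrogenase genes Ogdh (0.07), Dlst (0.0016) and Dld (-0.11) did not pass. Scaled to Trbc1 and Trbc2 all 5 had positive values and Sucla2 was called higher, as were 7355 of all 16363 tested genes. Suclg2, the GTP-forming beta subunit of succinate-CoA ligase, had 1397, 1187, 1259 and 1298 normalized counts in acute KO spleens and 1512 at the lowest, 1548 at the median and 1648 at the highest in acute WT spleens. All KO values lay below WT (log2 fold change -0.28, SE 0.0526, adjusted p = 0.00195). Suclg1, the shared alpha subunit, had 1399, 1306, 1414 and 1212 in acute KO spleens and 1461 at the lowest, 1509 at the median and 1589 at the highest in acute WT spleens. It did not overlap (log2 fold change -0.18, SE 0.0531, adjusted p = 0.0206), but was not called without KO library 2 or 4 (adjusted p from 0.0512 to 0.0539). Sucla2, the ATP-forming beta subunit, had a log2 fold change of -0.16, SE 0.0539, adjusted p = 0.0358. Its call was lost without any of KO libraries 2 and 3 and WT libraries 3, 4 and 5 (adjusted p from 0.0684 to 0.118).

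Fh1, the fumarase that hydrates fumarate to malate, had 2404, 2273, 2344 and 2303 normalized counts in acute KO spleens and 2495 at the lowest, 2645 at the median and 2751 at the highest in acute WT spleens. The groups did not overlap (log2 fold change -0.17, SE 0.042, adjusted p = 0.00982). Mdh1, the cytosolic malate dehydrogenase of the malate-aspartate shuttle, had 4508, 4065, 3973 and 4510.2 in acute KO spleens and 4624 at the lowest, 4893 at the median and 5196 at the highest in acute WT spleens. KO lay below WT (log2 fold change -0.20, SE 0.0543, adjusted p = 0.016), and the call was lost without KO library 2 or 3 (adjusted p from 0.0511 to 0.0604). Mdh2, the mitochondrial enzyme, overlapped between the groups (log2 fold change -0.13, SE 0.0497, adjusted p = 0.0613), and it passed without KO library 3 (adjusted p = 0.0406).

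The pyruvate carrier did not pass the test in the acute arm as deposited. Scaled to Trbc1 and Trbc2 both genes were called higher (0.36 for Mpc1 and 0.37 for Mpc2), as were 7355 of all 16363 tested genes. The median of all genes in that fit was 0.35, so these values lie near the shift of all genes. Mpc1 had 603, 693, 593 and 668 normalized counts in acute KO spleens and 605 at the lowest, 641 at the median and 689.8 at the highest in acute WT spleens. The groups overlapped over most of their range (log2 fold change -0.01, SE 0.0681, adjusted p = 0.921), and Mpc2 was alike in this (log2 fold change -0.01, SE 0.0785, adjusted p = 0.964). RefSeq lists a pseudogene copy of Mpc1, so how reads were split between them is uncertain.

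Among the genes that exchange carbon or amino groups with the cycle, Pck2, Me2 and Glud1 were higher in acute KO spleens as deposited. With the other-cell score as a covariate all 3 had negative values that did not pass (-0.76 for Pck2, -0.06 for Me2 and -0.04 for Glud1). Of 5 genes of this group 3 were higher and 1, Got1, lower (median 0.17). Scaled to Trbc1 and Trbc2, Got1 had a positive value of 0.21. Pck2, the mitochondrial phosphoenolpyruvate carboxykinase and a known target of the stress factor ATF4, had 85.2, 341, 393 and 140.3 normalized counts in acute KO spleens and 37.8 at the lowest, 62.4 at the median and 91.2 at the highest in acute WT spleens. KO libraries 2 and 3 were far above the rest and KO library 1 lay inside the WT range (log2 fold change 1.72, SE 0.4, adjusted p = 0.00684). KO libraries 2 and 3 also had the highest other-cell scores, and without them Pck2 was 0.86 (adjusted p = 0.114).

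Me2, the mitochondrial malic enzyme that makes pyruvate from malate, had 2444, 2866, 2664 and 2319 normalized counts in acute KO spleens and 2124 at the lowest, 2216 at the median and 2272 at the highest in acute WT spleens. No KO value overlapped WT (log2 fold change 0.22, SE 0.0581, adjusted p = 0.0131). Glud1, the glutamate dehydrogenase, had 3009, 3520.1, 3243 and 3078 in acute KO spleens and 2747 at the lowest, 2857 at the median and 2912 at the highest in acute WT spleens. KO lay above WT (log2 fold change 0.17, SE 0.0479, adjusted p = 0.0171), with an adjusted p of 0.0522 without KO library 2. Without KO libraries 2 and 3, the log2 fold change was 0.11 for Me2 (adjusted p = 0.19) and 0.10 for Glud1 (adjusted p = 0.207). KO library 2 had both the highest Me2 and Glud1 values and the highest other-cell score.

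The transaminases exchange amino groups between glutamate and oxaloacetate in the cytosol (Got1) and the mitochondrion (Got2). Got1 had a log2 fold change of -0.16, SE 0.0528, adjusted p = 0.0325, with KO below WT, and the call was lost without any of KO libraries 2, 3 and 4 and WT libraries 1, 3 and 4 (adjusted p from 0.0516 to 0.0752). Got2 did not pass (log2 fold change -0.09, SE 0.0432, adjusted p = 0.147); a pseudogene copy, Got2-ps1, has a row of its own, so the split of reads between them is uncertain.

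**Figure D3:**
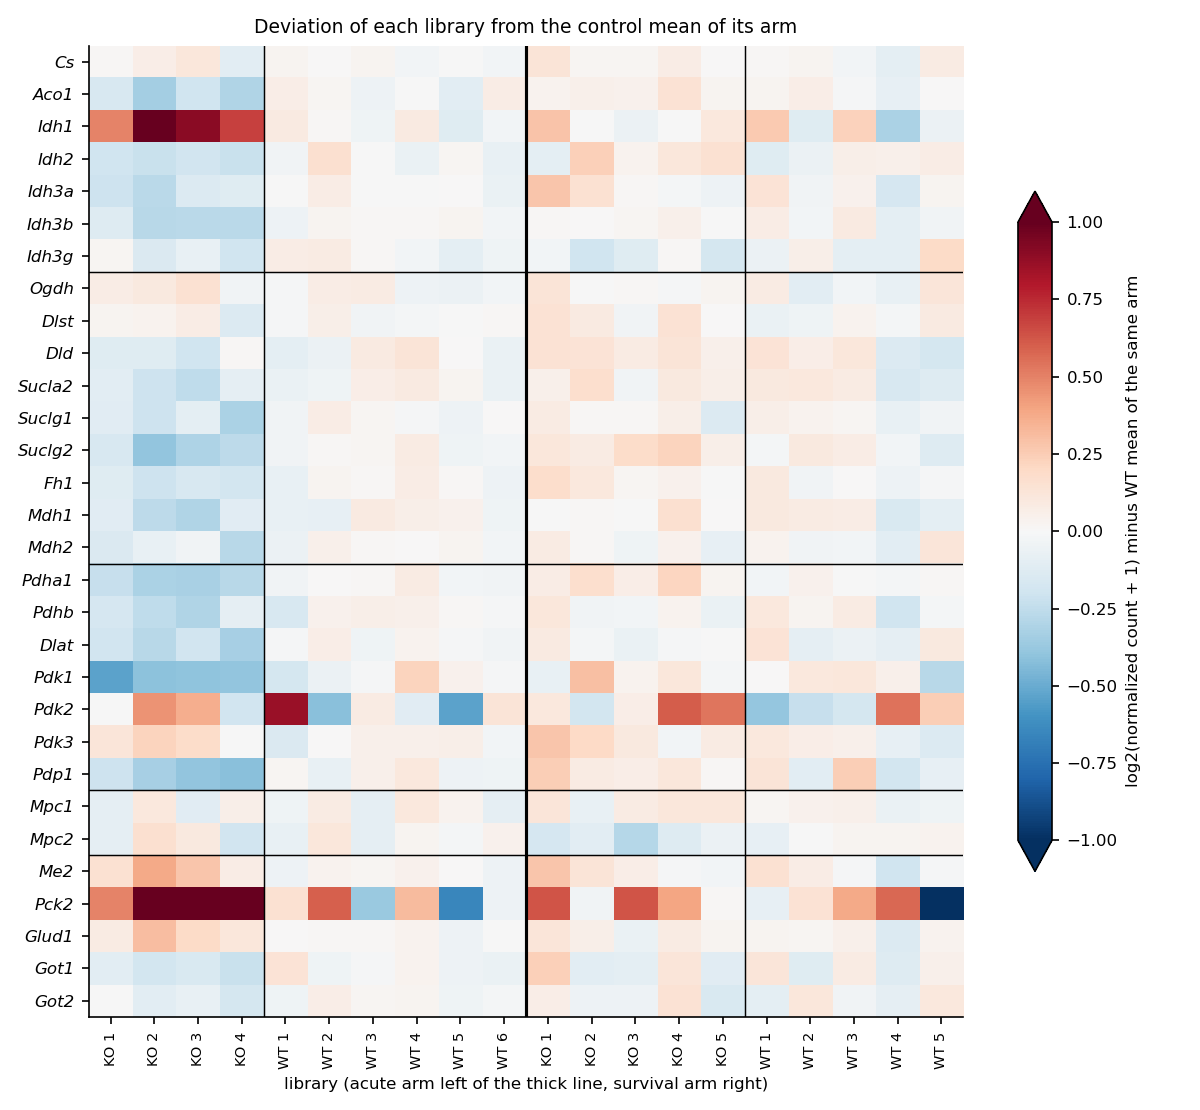
Difference of each gene's log2 value in each library from the mean of its arm's WT group (colour, red above and blue below, limited to 1 log2 unit either way), with genes in role order down the page and libraries along the x axis, KO left of WT in each arm. As deposited, 19 to 24 of the 30 genes lay below the WT mean in each acute KO library. In the acute WT libraries 7 to 25 did, so this count does not separate the groups. Scaled to Trbc1 and Trbc2, 29 of the 30 had a positive acute fold change.

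Which acute falls were called depended on the libraries that entered, and their direction on the scaling, which is why direction is given as deposited. By quantile normalization, all 15 genes called lower and all 4 called higher kept their call and direction. Of the 15, all had negative values without KO libraries 2 and 3. With the other-cell score as a covariate 14 of the 15 had negative values, but 0 were called. The summed level of Trbc1 and Trbc2 was 34033, 25780.4, 28323 and 33472 in acute KO libraries 1 to 4 and 34735 to 41178 in acute WT libraries. Scaled to it, the median of all tested genes moved from -0.02 to 0.35 and that of the 30 genes to 0.23, below that of all genes. Of the 15 genes called lower as deposited, 0 were called lower then, and Pdk1 (-0.06, adjusted p = 0.639) was the one that stayed negative. With the other-cell score as a covariate, 0 of the 30 genes and 0 of all genes were called, with 1303 genes at an unadjusted p under 0.05. Without acute KO libraries 2 and 3, limma called 2137 genes and 8 of the 30: Pdk1 (-0.47), Dlat, Pdha1, Aco1, Suclg2, Mdh2 and Idh3b were lower and Idh1 higher.

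**Figure D4:**
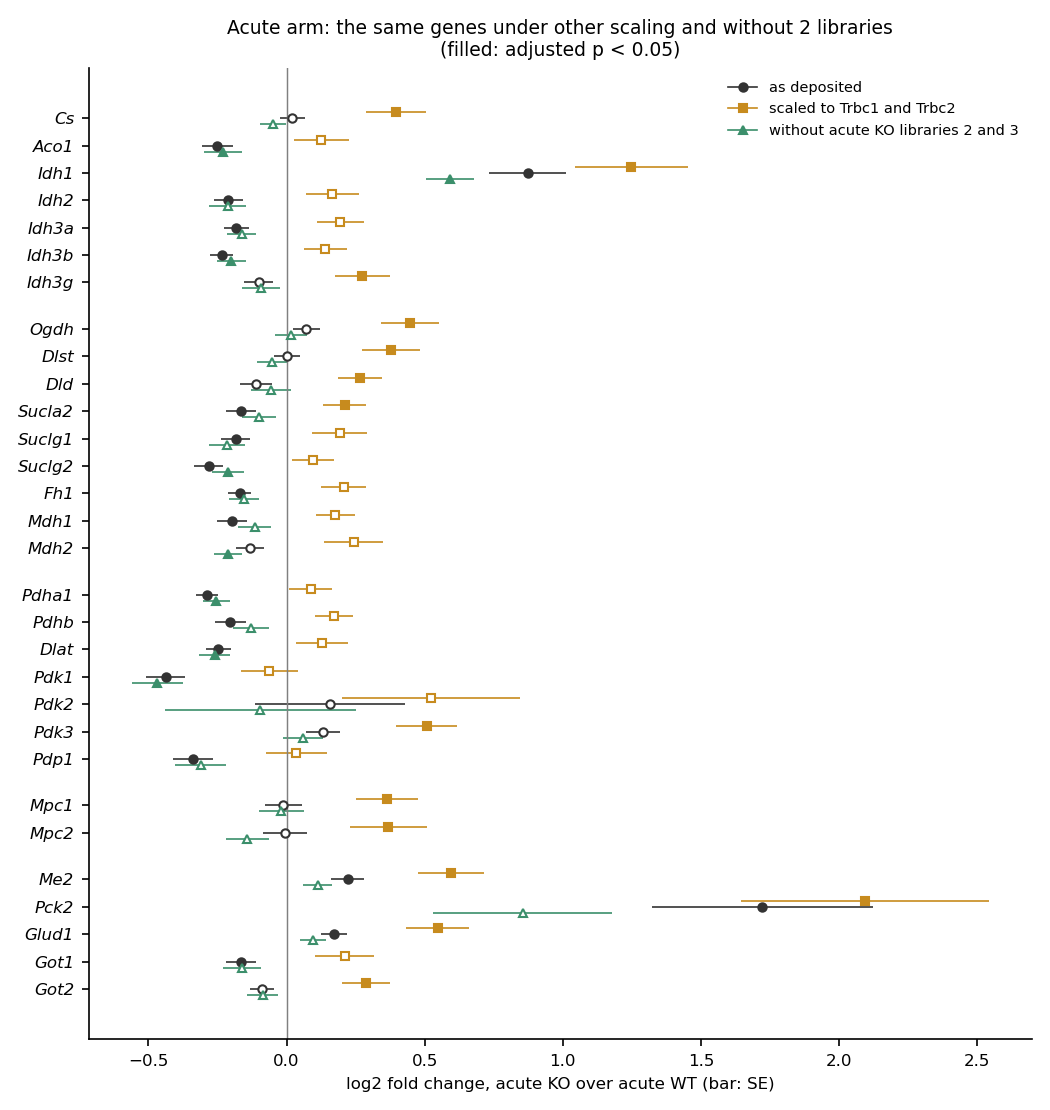
Acute log2 fold change of KO over WT (x axis, with SE) for the 30 genes as deposited (circles), scaled to Trbc1 and Trbc2 (squares) and without acute KO libraries 2 and 3 (triangles); filled symbols passed an adjusted p under 0.05. All squares but that of Pdk1 lie above 0. That scaling moves all values up by nearly the same amount, so it is no test of the falls of single genes.

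In the survival arm none of the 30 genes passed the test. limma called 0 of 30, beside 0.0124% of all genes (0.0062% in each direction), and 3 of the 30 had an unadjusted p under 0.05, namely Pdha1, Mpc2 and Suclg2. The log2 fold changes ran from -0.15 to 0.33, with a median of 0.07 beside 0.01 over all genes, and 26 of 30 were positive as deposited, while 21 were negative scaled to Trbc1 and Trbc2. No gene separated KO from WT, where 2.01% of all tested genes did (1.21% with KO above and 0.793% with KO below WT). Pdha1 had 5614, 5981, 5584, 6160.3 and 5436 normalized counts in survival KO spleens and 5211, 5486, 5305, 5247 and 5353 in survival WT spleens. KO library 5 lay below WT library 2, and the log2 fold change was 0.11, SE 0.0491, adjusted p = 0.541. Mpc2 had 491, 515, 453, 505 and 530.2 in survival KO spleens and 522, 551, 565, 563 and 566 in survival WT spleens. KO library 5 lay above WT library 1 (log2 fold change -0.15, SE 0.0674, adjusted p = 0.548). Suclg2 had 1721, 1683, 1802, 1858 and 1658 in survival KO spleens and 1569.9, 1698, 1675, 1565 and 1458 in survival WT spleens. KO libraries 2 and 5 lay inside the WT range and the other KO libraries above it (log2 fold change 0.13, SE 0.059, adjusted p = 0.551).

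Other named genes overlapped as well in the survival arm. Cs had 6336, 5869.9, 5854, 6082 and 5791 normalized counts in survival KO spleens and 5841, 5899, 5684, 5401 and 6123 in survival WT spleens (log2 fold change 0.05, SE 0.0501, adjusted p = 0.804). Idh1 had 456, 372, 360.3, 373 and 404 in survival KO spleens and 449.8, 345, 439, 300.2 and 359.9 in survival WT spleens (log2 fold change 0.07, SE 0.118, adjusted p = 0.896). Pdk1 had 1044, 1357, 1128, 1192 and 1083 in survival KO spleens and 1105, 1181, 1189.8, 1141 and 908 in survival WT spleens (log2 fold change 0.07, SE 0.0899, adjusted p = 0.839). In these 3 genes the highest and lowest libraries of the groups interleaved. Pck2 had 118, 74.4, 118, 100.5 and 76.6 in survival KO spleens and 71.9, 84.4, 99.4, 114 and 37 in survival WT spleens (log2 fold change 0.33, SE 0.271, adjusted p = 0.758). Glud1 had 3136, 3003, 2750.4, 3041 and 2928 in survival KO spleens and 2939, 2919, 2973, 2618 and 2951 in survival WT spleens (log2 fold change 0.05, SE 0.0552, adjusted p = 0.834). WT library 4 was the lowest for Glud1, and it was low for most of the 30 genes, with 25 of 30 below the WT mean. The ratio of Mpc1 to Mpc2 averaged 0.38 ± 0.127 in survival KO and 0.16 ± 0.0819 in survival WT spleens (SD, n = 5 each; difference 0.22, exact permutation p = 0.0238, adjusted p = 0.127). Mpc1 itself had 669, 585, 651, 667 and 667 in survival KO spleens and 624, 634, 637, 589 and 599 in survival WT spleens (log2 fold change 0.07, SE 0.0643, adjusted p = 0.777). KO library 2 was the lowest library for Mpc1.

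The arms were compared directly by the difference of their fold changes, survival less acute, over 15673 genes tested in both. As deposited, 12 of the 30 genes differed, where 20.2% of all genes did, 11 with a higher fold change in the survival arm and 1, Idh1, with a lower one, beside 9.39% of all genes called higher and 10.9% called lower; scaled to Trbc1 and Trbc2, 17 of 30 were called and all were lower, as were 6897 of the 6956 genes called in that fit. With the other-cell score as a covariate 0 of the 30 passed. The largest differences were in Pdk1 (0.51, SE 0.118, adjusted p = 0.00434), Pdp1 (0.44, SE 0.117, adjusted p = 0.0111), Suclg2 (0.41, SE 0.075, adjusted p = 0.000553) and Pdha1 (0.40, SE 0.0576, adjusted p = 6.57e-05). Each of these 4 genes was called lower in the acute arm as deposited and had a positive fold change in the survival arm, which did not pass. Idh1 differed by -0.81, SE 0.19, adjusted p = 0.00488, with 0.87 in the acute and 0.07 in the survival arm. Aco1 differed by 0.31, Idh2 by 0.30, Idh3b by 0.25, Dlat by 0.24 and Fh1 by 0.24, with adjusted p from 0.00336 to 0.0219.

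Idh3a and Mdh1 stood nearest to the threshold. Idh3a differed by 0.26, SE 0.0886, adjusted p = 0.045 and Mdh1 by 0.23, SE 0.0819, adjusted p = 0.0491, and each lost its call in 13 of the 20 fits that left out 1 library (adjusted p there from 0.0502 to 0.107 for Idh3a and from 0.053 to 0.118 for Mdh1). Dld, Pdhb, Sucla2 and Suclg1 did not pass (adjusted p from 0.0617 to 0.0897), but each passed in 2 to 4 of those fits. Pck2 differed by -1.40, SE 0.514, adjusted p = 0.0597 and passed when KO library 1 or 4 or WT library 2 of the acute arm, or WT library 5 of the survival arm, was left out. Of the 15 genes lower in the acute arm as deposited, 14 had a positive survival fold change, and Dlat was the exception. The survival values of Pdp1 were 384, 342, 338, 350.3 and 326 in KO and 353, 299.9, 383, 285 and 306 in WT spleens, and those of Idh2 1353, 1703, 1481, 1562 and 1604 in KO and 1334, 1391, 1504, 1496 and 1522 in WT spleens. They overlapped in both genes.

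For the other genes that differed between the arms, the survival groups overlapped. Aco1 had 1482, 1496, 1492, 1602 and 1474 normalized counts in survival KO spleens and 1475, 1512, 1436, 1367 and 1448 in survival WT spleens (log2 fold change 0.06). KO library 4 stood above all others for Aco1, and the remaining KO libraries lay within the WT range. Idh3a had 3124, 2865, 2599, 2540.2 and 2478 in survival KO spleens and 2821, 2506, 2653, 2285 and 2627 in survival WT spleens (log2 fold change 0.08). Idh3b had 3272, 3261, 3284, 3371 and 3244 in survival KO spleens and 3414, 3182, 3465, 3033 and 3164 in survival WT spleens (log2 fold change 0.02). All KO values of Idh3b lay within the WT range, while KO library 1 was the highest of all for Idh3a. Fh1 had 3015, 2865, 2699, 2750.4 and 2658 in survival KO spleens and 2851, 2607, 2673, 2573 and 2647 in survival WT spleens (log2 fold change 0.07). Mdh1 had 5036, 5091, 5038, 5650.1 and 5079 in survival KO spleens and 5393, 5335, 5314, 4555 and 4727 in survival WT spleens (log2 fold change 0.03). KO library 1 was the highest of all for Fh1 and KO library 4 for Mdh1. Dlat had 1912, 1772, 1713, 1776 and 1792 in survival KO spleens and 1976, 1685, 1726, 1685 and 1920.4 in survival WT spleens (log2 fold change -0.0021, SE 0.0617, adjusted p = 0.998), with all KO values inside the WT range. Without acute KO libraries 2 and 3, 4 of the 30 genes passed (Aco1, Pdha1, Pdk1 and Suclg2), beside 1262 of all 15673 genes. The median difference of the 30 genes was 0.17 then and 0.18 with all libraries. With fewer libraries the test also has less power, so the lost calls do not show that the differences rest on this pair.

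Other genes of the pathway were read from a list of 30 that holds no gene of the above. In the acute arm 27 were tested, 3 were lower and 0 higher as deposited, beside 14.7% and 16.7% of all tested genes, with a median of -0.13. Pdk4, a kinase of pyruvate dehydrogenase, was too low to be tested, and Pc and Me3 were not analysed here. Pck1, the cytosolic phosphoenolpyruvate carboxykinase of gluconeogenesis, had 2.97, 5.08, 4.95 and 4.93 normalized counts in acute KO spleens and 9.5 at the lowest, 16.8 at the median and 29.8 at the highest in acute WT spleens. All acute KO values were under 10, so Pck1 was tested through the WT libraries alone, and its fold change is given as a description (log2 fold change -1.69, SE 0.364, adjusted p = 0.0044). With the other-cell score as a covariate it was -2.99 (adjusted p = 0.386). In the survival arm Pck1 had 3.85, 6.38, 7.15, 18.5 and 4.91 in KO and 23.3, 21.8, 12.3, 24.8 and 21.7 in WT spleens (log2 fold change -1.40, SE 0.372, adjusted p = 0.267), with KO library 4 inside the WT range. Slc1a5, a glutamine importer, had a log2 fold change of -0.27, SE 0.0771, adjusted p = 0.0199. D2hgdh, the D-2-hydroxyglutarate dehydrogenase, had one of -0.20, SE 0.0669, adjusted p = 0.0383. Both are as deposited, and both were positive scaled to Trbc1 and Trbc2 (0.11 and 0.17).

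Of these 27 genes 0 were called in the survival arm, and 2 had an unadjusted p under 0.05. Between the arms 2 of the 27 differed, beside 20.2% of all genes, both higher in the survival arm as deposited, with Slc38a1 turning negative scaled to Trbc1 and Trbc2 (-0.24, adjusted p = 0.0967). Lipt2, a lipoyl transferase that starts the lipoylation of pyruvate and oxoglutarate dehydrogenases, differed by 1.04, SE 0.237, adjusted p = 0.00375, and by 0.59 (adjusted p = 0.0965) scaled to Trbc1 and Trbc2. It had 53.9, 74.6, 57, 58.1 and 58.6 normalized counts in survival KO spleens and 26.4, 43.9, 38.1, 40.1 and 41.3 in survival WT spleens, with no overlap (log2 fold change 0.67, SE 0.183, adjusted p = 0.273). In acute KO spleens it had 39.4, 45.5, 52 and 43, and in acute WT spleens 50.4 at the lowest, 56.6 at the median and 79.9 at the highest (log2 fold change -0.38, SE 0.172, adjusted p = 0.12). Slc38a1, a neutral amino acid carrier that takes up glutamine, differed by 0.22, SE 0.0777, adjusted p = 0.0479.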

How the data were processed

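From leukemic spleen, 20 strand-specific libraries of polyadenylated RNA were sequenced. The authors deposited 2 tables of DESeq-normalized counts, a signal per gene and library that is not whole reads, one table per arm. Per the submitters' processing notes, the authors used kallisto 0.46.0, build GRCm39 and DESeq; how transcripts were summed to genes is not given in the sources used here. Values under 12 lay within 0.1 of a multiple of one step per library in 61.7 to 85.1% of cases, so whole reads were not recovered, depth is unknown and count tests were not run.

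From these values log2(normalized count + 1) was computed for genes that reached 10 in at least 4 (acute) or 5 (survival) libraries; fold changes are on that scale, which understates those of low genes. limma 3.58.1 in R 4.3.3 (lmFit, eBayes with trend, tested on simulated data) gave two-sided p-values, adjusted by Benjamini-Hochberg over all genes tested and called under 0.05. The difference between arms was fitted over all 20 libraries. Ratios and Acly were compared by exact two-sided permutation tests (scipy 1.17.1, which doubles the smaller tail). Replicate numbers did not pair the samples. Alternatives were other pseudocounts (0.5 and 10), filters (none and 50), quantile normalization, scaling to Trbc1 and Trbc2, fits without trend or with array weights, an other-cell covariate, a replicate block and libraries left out.

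The 30 genes, the other lists and the tests were chosen with earlier results of these data known. All 30 are accounted for. Values per library are given for those called in an arm or between arms (for the 15 largest of over 15 calls in an arm, the rest by fold change) and for Cs, Idh1, Idh2, Pdk1, Mpc1, Glud1 and Pck2. Levels were not compared between genes, since values are not per length. Promoters came from RefSeq (GRCm38.p6) by symbol, a build other than that of the tables. Tables and figures were made with pandas 2.3.3, numpy 2.4.6, matplotlib 3.10.9 and Python 3.11.15.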

Additional observations from a re-analysis of the deposited data

Results flagged for a closer look

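Between the arms, the fold changes (survival less acute) differed by limma's test of the difference as deposited for 12 of the 30 genes and for Acly. The differences were 0.31 for Aco1, -0.81 for Idh1, 0.30 for Idh2, 0.26 for Idh3a, 0.25 for Idh3b, 0.41 for Suclg2, 0.24 for Fh1 and 0.23 for Mdh1. They were 0.40 for Pdha1, 0.24 for Dlat, 0.51 for Pdk1, 0.44 for Pdp1 and -0.92 for Acly. Scaled to Trbc1 and Trbc2, the differences of Aco1, Idh2, Idh3a, Idh3b, Suclg2, Fh1, Mdh1, Pdha1, Dlat and Pdp1 turned negative.

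Single libraries stood far from the rest of their group in 9 of 124 groups examined, where chance gives about 1 in 20. In survival KO library 4, Aco1 was 1602 with the other KO libraries at 1474 to 1496, and Mdh1 was 5650.1 with the others at 5036 to 5091. Ogdh was 6649.8 in survival KO library 1, with the others at 6025 to 6199, and Mpc1 was 585 in survival KO library 2, with the others at 651 to 669. In acute KO library 1, Idh3b was 3084 with the others at 2797 to 2809.5, and Pdk1 was 749 with the others at 818 to 826. In acute WT library 1, Pdhb was 3298 with the others at 3659 to 3836, and Pdk2 was 72.8 with the others at 27.0 to 43.3. Glud1 was 2618 in survival WT library 4, with the others at 2919 to 2973.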

How the results depend on the processing

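The acute and between-arm calls depend on scaling and on which libraries enter. Leaving out acute KO libraries 2 and 3 also leaves fewer libraries to test. The depth behind each value is unknown, so small differences in low genes such as Pdk2 may not have been detectable. Acute calls over all genes were 3294 with the replicate block, 2137 without acute KO libraries 2 and 3, and 0 with the other-cell score as a covariate (5140 as reported), and calls among the 30 genes were 9, 8 and 0 in those fits (19 as reported). Over all genes, acute calls split into 7355 higher and 94 lower scaled to Trbc1 and Trbc2, and 2331 higher and 4106 lower by quantile normalization, where the median of all genes was -0.13. Between-arm calls were 6956 scaled to Trbc1 and Trbc2 (59 higher, 6897 lower; 2502 and 1519 by quantile normalization; 1471 and 1702 as reported), 1262 without the pair of libraries and 1 with the score. Among the 30 genes, 4 passed without that pair and 0 with the score. Survival calls over all genes were 2 as reported, 6 with a pseudocount of 10, 4 with a filter at 50, 1 scaled to Trbc1 and Trbc2, 11 with array weights and 4 with the score. The cause was not tested.

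Leaving out 1 library at a time gave 3693 to 5444 acute calls (14 to 19 of the 30), 2239 to 3585 between arms (10 to 16 of the 30) and 1 to 24 in the survival arm (0 of the 30), with 24 without WT library 4. No ratio passed in any fit run, but a single fully separated pair could not have passed after adjustment.

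Replicate numbers did not pair the samples: same-numbered deviations correlated at -0.07 to 0.14 in the acute and -0.02 to 0.13 in the survival arm, and 1 of 4 and 0 of 5 pairs correlated best with their own number. With the replicate block, survival calls stayed at 2 and between-arm calls were 2363, with 8 of the 30.

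Scaled to Trbc1 and Trbc2, acute values changed sign for Aco1 (0.125), Idh2 (0.165), Idh3a (0.194), Idh3b (0.141), Idh3g (0.274), Dld (0.266), Sucla2 (0.211), Suclg1 (0.192), Suclg2 (0.0943), Fh1 (0.206), Mdh1 (0.177), Pdha1 (0.0874), Pdhb (0.172), Dlat (0.129), Pdp1 (0.0358), Mpc1 (0.364), Mdh2 (0.243), Mpc2 (0.369), Got1 (0.211) and Got2 (0.288). With the score they did so for Cs (-0.0941), Dlst (-0.123), Ogdh (-0.0860), Pdk3 (-0.0599), Mdh1 (0.0200), Me2 (-0.0579), Pck2 (-0.757) and Glud1 (-0.0358). Between the arms, scaling to Trbc1 and Trbc2 turned Cs (-0.432), Aco1 (-0.149), Idh2 (-0.163), Idh3a (-0.203), Idh3b (-0.208), Dlst (-0.394), Dld (-0.240), Sucla2 (-0.227), Suclg2 (-0.0466), Fh1 (-0.224), Mdh1 (-0.227), Mdh2 (-0.325), Pdha1 (-0.0596), Pdhb (-0.253), Dlat (-0.215), Pdp1 (-0.0167), Mpc1 (-0.377), Suclg1 (-0.270), Pdk2 (-0.381), Got1 (-0.285) and Got2 (-0.382). With the score the difference changed sign for Glud1 (0.0792), Me2 (0.144), Mpc2 (0.258), Ogdh (0.116), Pck2 (1.098) and Pdk3 (0.188).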
